A study of Mus musculus with 8 samples.

Results

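Fatty acid synthesis was examined in brown adipose tissue, a fat depot that burns fuel for heat, through 10 genes: the enzymes Acly, Acss2, Acaca, Acacb, Fasn and Me1, and the regulators Srebf1, Mlxipl, Thrsp and Mid1ip1. They were taken by name, each through the probe set of highest mean that carries a single gene symbol, and all 10 were found among the 22180 genes the array names. The tissue came from male C57BL/6J mice on normal chow, 14 weeks old, that were fasted overnight and given chow again for 1 h before harvest. There were 5 mice labelled Abhd15 KO and 3 WT mice, each on its own Mouse Gene 2.0 ST array with 200 ng of total RNA. The labels give no litter, cage or batch, and they do not say how the deletion was made or which part of Abhd15 is missing. With no record of separate harvests, p-values measure only the spread between these mice.

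Abhd15, the gene named in the labels, read 6.32, 6.14, 5.68, 6.35 and 6.13 log2 in the arrays labelled Abhd15 KO and 5.87, 5.94 and 6.23 in WT, in the order of their replicate numbers, as are all values listed here. It was not lower, and a probe set outside the deleted part checks nothing, so each direction given here rests on the labels. All 12 brown adipocyte markers, Ucp1 among them, were above the dim limit of 2.88 log2 in every array. That limit is the level below which 95% of the values of odorant and vomeronasal receptor probe sets lie. The mean of these markers ran from 9.40 to 9.99 in the arrays labelled Abhd15 KO and from 9.69 to 9.88 in WT. Means of 18 skeletal muscle markers ran from 4.40 to 7.17 and from 5.06 to 7.90 in the same order, with Myh1, Myh7, Tnnt1 and Ampd1 below the limit in at least 1 array. All 18 muscle markers had a lower mean in Abhd15 KO (median difference −0.61 log2), all 12 endothelial markers a higher one (median 0.16), and 13 of 16 macrophage markers a lower one (median −0.19), with 0 of these past the adjusted threshold by limma. Without Abhd15 KO replicate 1 and WT replicate 2 these counts were 18 of 18 lower (median −0.49), 8 of 12 higher (0.04) and 11 of 16 lower (−0.12). These 2 arrays are left out together here and below because earlier results of these data showed them lowest in Angptl8. Endothelial means ran from 6.77 to 7.22 in the arrays labelled Abhd15 KO and from 6.73 to 7.01 in WT. The part of these cell types in the differences between the labels was not tested. In a tissue sample, fewer cells of a type and less RNA per cell cannot be told apart.

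New fatty acids are built from cytosolic acetyl-CoA. ATP citrate lyase (Acly) makes it from citrate and Acss2 from acetate, the carboxylases Acaca and Acacb turn it into malonyl-CoA, and fatty acid synthase (Fasn) joins these units into palmitate with NADPH that malic enzyme (Me1) helps to supply. Insulin acts on the pathway largely through SREBP-1, the product of Srebf1, and glucose through ChREBP, the product of Mlxipl. Thrsp, also called Spot 14, and Mid1ip1 encode related small proteins that bind each other. Mid1ip1 protein activates acetyl-CoA carboxylase. In rodents brown fat is among the tissues with the highest rates of this synthesis, and its genes are known to rise on feeding.

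The sequences in front of the start sites of 4 of these genes are shown, because Srebf1 and Mid1ip1 were low in the same arrays below while Fasn and Thrsp were not. They are from RefSeq, build GRCm38.p6, 250 bases ending just before the start, 5′ to 3′ on the gene's strand. All 10 genes had at least 1 such window there, 14 windows in all. The capitals mark TCACCC, the core of the sterol regulatory element to which SREBPs bind, CCAAT, the NF-Y box, GGGCGG, the Sp1 box, and CACGTG, an E-box, each on either strand. The build that the array's probe sets were mapped to was not given in the sources used here.
Mid1ip1, chrX:10717115-10717364, plus strand: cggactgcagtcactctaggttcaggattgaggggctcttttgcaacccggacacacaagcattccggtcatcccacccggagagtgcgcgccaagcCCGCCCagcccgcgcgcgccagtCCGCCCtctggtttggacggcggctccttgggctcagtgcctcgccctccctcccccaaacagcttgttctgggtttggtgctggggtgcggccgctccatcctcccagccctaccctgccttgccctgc
Srebf1, the most downstream of 3 listed starts, chr11:60210472-60210721, minus strand: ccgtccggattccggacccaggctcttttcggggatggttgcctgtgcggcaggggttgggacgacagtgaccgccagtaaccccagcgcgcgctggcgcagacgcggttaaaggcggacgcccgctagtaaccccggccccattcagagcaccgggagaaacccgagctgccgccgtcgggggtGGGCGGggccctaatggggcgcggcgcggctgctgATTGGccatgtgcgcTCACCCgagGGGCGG
Fasn, chr11:120824548-120824797, minus strand: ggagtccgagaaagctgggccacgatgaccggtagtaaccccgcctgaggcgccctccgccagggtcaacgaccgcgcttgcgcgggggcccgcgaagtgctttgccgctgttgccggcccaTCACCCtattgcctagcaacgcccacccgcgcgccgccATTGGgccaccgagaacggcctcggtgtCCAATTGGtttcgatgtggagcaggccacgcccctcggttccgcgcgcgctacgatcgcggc
Thrsp, chr7:97417551-97417800, minus strand: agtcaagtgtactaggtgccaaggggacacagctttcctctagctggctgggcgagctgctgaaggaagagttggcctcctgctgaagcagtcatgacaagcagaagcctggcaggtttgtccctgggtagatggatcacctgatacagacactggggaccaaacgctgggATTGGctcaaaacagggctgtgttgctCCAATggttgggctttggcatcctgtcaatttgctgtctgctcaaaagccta

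The Srebf1 window shown held TCACCC at position −15, between an NF-Y box at −30 and an Sp1 box at −6, with another Sp1 box at −65. Positions are counted to the first base of each match, from −1 at the base before the start. Windows at the other listed Srebf1 starts held no TCACCC. The probe set does not tell which start the measured RNA came from. The Fasn window held TCACCC at −128 and NF-Y boxes at −90, −62 and −59, the last pair sharing bases as CCAATTGG. The Thrsp window held NF-Y boxes at −79 and −52 only, and the Mid1ip1 window Sp1 boxes at −153 and −130 only. Over the 32851 windows of the same length in the table, 13.8% held TCACCC, 33.8% CCAAT, 32.7% GGGCGG and 6.02% CACGTG. Of the 14 windows of the 10 genes, 4 held TCACCC (1 each of Acss2, Me1, Srebf1 and Fasn), 8 held CCAAT, 7 held GGGCGG and 1, of Mlxipl, held CACGTG. The fuller form TCACNCCAC, found in 1.05% of all windows, was in 1 Mlxipl window. These are matches of letters and say nothing of binding.

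None of the 10 genes passed the test between the labels. With limma, 0 of the 10 had an adjusted p under 0.05, against 0.0% of the 13223 genes tested, and the adjusted p was 0.9997 in each of the 10. At an unadjusted p under 0.05 there were 0 of the 10, against 3.99% of all tested genes. The groups overlapped in each of the 10, and they did not overlap in 2.77% of all tested genes. The median difference, as Abhd15 KO minus WT, was −0.05 log2 for the 10 genes and 0.01 for all tested genes, with 3 of the 10 higher and 7 lower. Without Abhd15 KO replicate 1 and WT replicate 2, 6 were higher and 4 lower (median 0.03). Exact two-sided permutation p-values lay between 0.214 and 0.911, where the 56 splits of 8 arrays allow none below 0.0179. All 10 genes were above the dim limit in all 8 arrays, so no floor sets these differences.

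**Figure D1:**
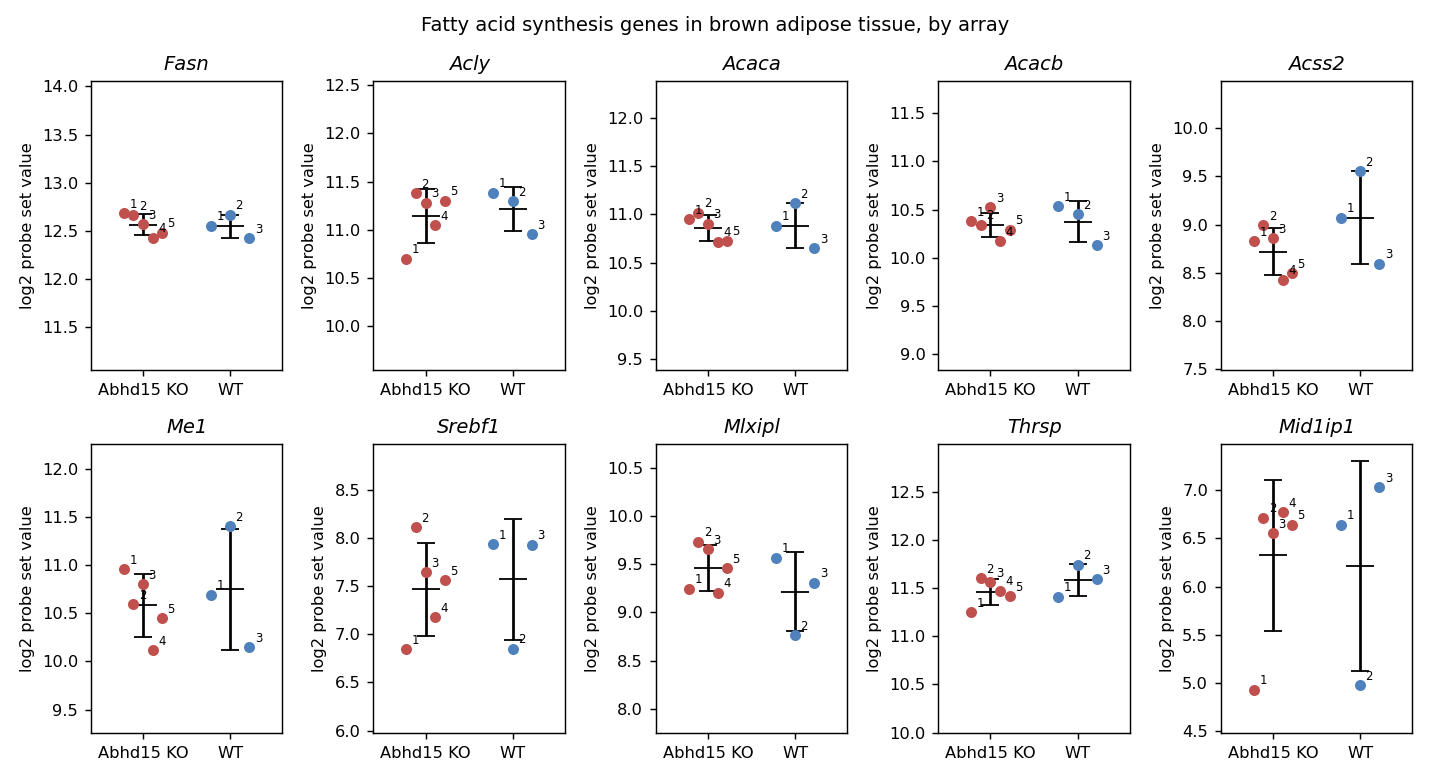
Log2 probe set values of the 10 genes (vertical axis, the same 3-unit span in every panel) in the 5 arrays labelled Abhd15 KO (red) and the 3 WT arrays (blue), with replicate numbers beside the points and bars for mean ± SD. In Mid1ip1 and Srebf1 the lowest points are Abhd15 KO replicate 1 and WT replicate 2. Ranges are smallest in Fasn (0.26 log2), Acacb (0.40), Acaca (0.47) and Thrsp (0.49).

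Fasn was the steadiest of the 10. It read 12.69, 12.67, 12.57, 12.43 and 12.48 log2 in the arrays labelled Abhd15 KO and 12.56, 12.67 and 12.43 in WT. The whole range was 0.26 log2, and both groups covered nearly the same span. The difference was 0.02 with a 95% confidence interval from −0.24 to 0.27, which spans 0.850-fold to 1.21-fold.

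The carboxylases varied somewhat more than Fasn, with ranges of 0.47 log2 (Acaca) and 0.40 log2 (Acacb). Acaca, the cytosolic form that feeds fatty acid synthase, read 10.95, 11.02, 10.90, 10.71 and 10.73 in the arrays labelled Abhd15 KO and 10.88, 11.12 and 10.65 in WT. Acacb, whose product at the mitochondrial surface restrains fatty acid uptake for oxidation, read 10.38, 10.34, 10.52, 10.17 and 10.29 against 10.53, 10.45 and 10.13 in WT. The highest and lowest array of the 8 were both WT arrays for each carboxylase. Their differences were −0.02 (−0.33 to 0.29) and −0.03 (−0.32 to 0.26), the brackets giving 95% confidence intervals here and below.

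The acetyl-CoA suppliers varied more. Acly read 10.70, 11.38, 11.28, 11.05 and 11.30 in the arrays labelled Abhd15 KO and 11.39, 11.30 and 10.95 in WT, a difference of −0.07 (−0.47 to 0.33). Its lowest array was Abhd15 KO replicate 1. Acss2 read 8.83, 8.99, 8.86, 8.43 and 8.49 in the arrays labelled Abhd15 KO and 9.07, 9.55 and 8.59 in WT. It had the largest difference of the 10, −0.35 (−0.85 to 0.14, exact permutation p = 0.214), and WT replicate 3 lay inside the range of the arrays labelled Abhd15 KO. Without Abhd15 KO replicate 1 and WT replicate 2 that difference was −0.14 (−0.66 to 0.38). Leaving out 1 array at a time gave −0.59 (without WT replicate 3, unadjusted p = 0.0194 by limma) to −0.11 (without WT replicate 2), with 0 genes past the adjusted threshold by limma in either case.

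Me1 had the widest range of the 6 enzymes. It read 10.96, 10.59, 10.80, 10.12 and 10.45 in the arrays labelled Abhd15 KO and 10.69, 11.40 and 10.15 in WT, a range of 1.29 log2. The difference was −0.17 (−0.79 to 0.46) and turned to 0.07 (−0.48 to 0.61) without Abhd15 KO replicate 1 and WT replicate 2. Those were also its 2 highest arrays, at 10.96 and 11.40.

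Abhd15 KO replicate 4 and WT replicate 3 were each among the 2 lowest arrays for 5 of the 6 enzymes. Of all tested genes, 31.8% had the first and 24.7% the second among their 2 lowest. They were the 2 lowest together for 4 of the 6 enzymes, against 4.42% of all tested genes. These arrays were picked after the values were seen, so no test goes with the counts. The exceptions were Acly for the first and Acss2 for the second, with the third-lowest place in both. Averaged over the 6 enzymes, the deviation from each gene's mean over 8 arrays was −0.26 log2 in both of these arrays. It was 0.34 in WT replicate 2, mostly through Me1 (0.76) and Acss2 (0.70), and between −0.12 and 0.11 in the other 5 arrays. The muscle marker mean was 7.17 in Abhd15 KO replicate 4 and 5.06 in WT replicate 3, at different places in its range. The brown adipocyte marker mean was 9.85 and 9.88 there, and the macrophage marker mean 5.21 and 5.33. The endothelial marker mean was 6.77 and 6.85, low in its range, with only WT replicate 2 lower at 6.73. The part of these cell types in the low enzyme values was not tested.

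**Figure D2:**
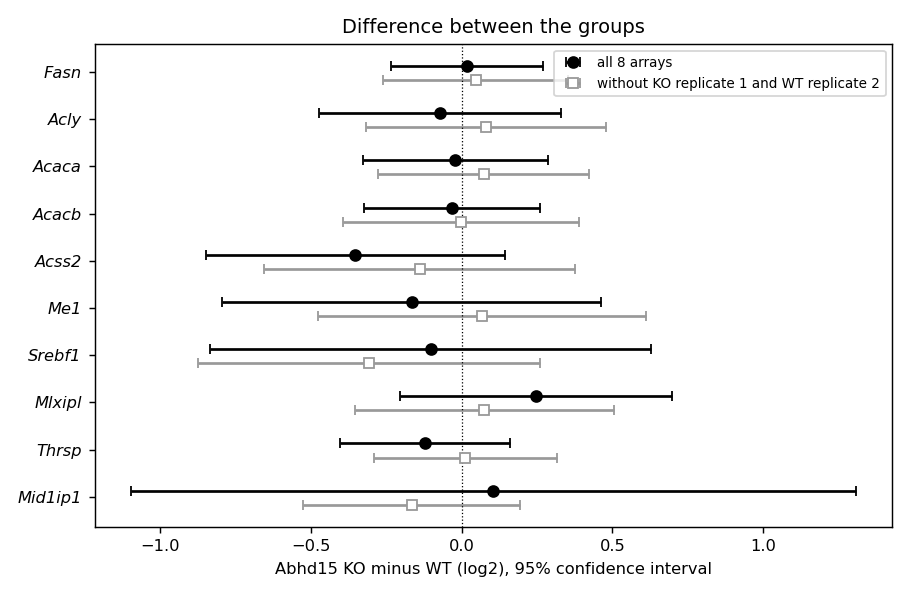
Difference between the labels (Abhd15 KO minus WT, log2, horizontal axis) for each of the 10 genes with its 95% confidence interval from limma, over all 8 arrays (filled) and without Abhd15 KO replicate 1 and WT replicate 2 (open). Every interval holds 0, and that of Mid1ip1 runs from −1.10 to 1.31 over 8 arrays and from −0.53 to 0.19 over the other 6.

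Mid1ip1 split the mice of each label instead of the labels. It read 4.93, 6.72, 6.55, 6.77 and 6.64 in the arrays labelled Abhd15 KO and 6.64, 4.98 and 7.03 in WT. Abhd15 KO replicate 1 and WT replicate 2 were low, and the other 6 arrays lay within 6.55 to 7.03. The difference between the labels was 0.11 (−1.10 to 1.31), an interval that spans 0.468-fold to 2.48-fold. Another Mid1ip1 probe set (17540240) read 3.23, 4.61, 4.43, 4.19 and 4.32 in the arrays labelled Abhd15 KO and 4.30, 3.49 and 5.05 in WT, with the same 2 arrays lowest. A further one (17540237) read between 2.44 and 3.26, around the dim limit, and did not have the same 2 arrays lowest.

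Srebf1 was low in the same arrays and varied in the others as well. It read 6.85, 8.11, 7.64, 7.18 and 7.56 in the arrays labelled Abhd15 KO and 7.93, 6.85 and 7.93 in WT. Of the arrays low in the enzymes, Abhd15 KO replicate 4 was the next lowest in Srebf1 and WT replicate 3, at 7.93, was among the 3 highest. The difference was −0.10 (−0.83 to 0.63), and −0.31 (−0.87 to 0.26) without Abhd15 KO replicate 1 and WT replicate 2. Srebf1 has an upstream and a downstream start that give different forms of SREBP-1, and a gene-level probe set does not part them.

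Mlxipl was lowest in WT replicate 2 but not in Abhd15 KO replicate 1. It read 9.24, 9.74, 9.65, 9.21 and 9.46 in the arrays labelled Abhd15 KO and 9.57, 8.76 and 9.31 in WT. Its difference of 0.25 (−0.21 to 0.70, exact permutation p = 0.321) was 0.02 without WT replicate 2, so that array carries most of it.

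Thrsp, the relative of Mid1ip1, did not share its pattern. It read 11.25, 11.60, 11.56, 11.47 and 11.42 in the arrays labelled Abhd15 KO and 11.41, 11.74 and 11.59 in WT. Abhd15 KO replicate 1 was its lowest array and WT replicate 2 its highest, and the range was 0.49 log2. The difference was −0.12 (−0.40 to 0.16), which spans 0.757-fold to 1.12-fold. It was −0.04 without WT replicate 2.

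**Figure D3:**
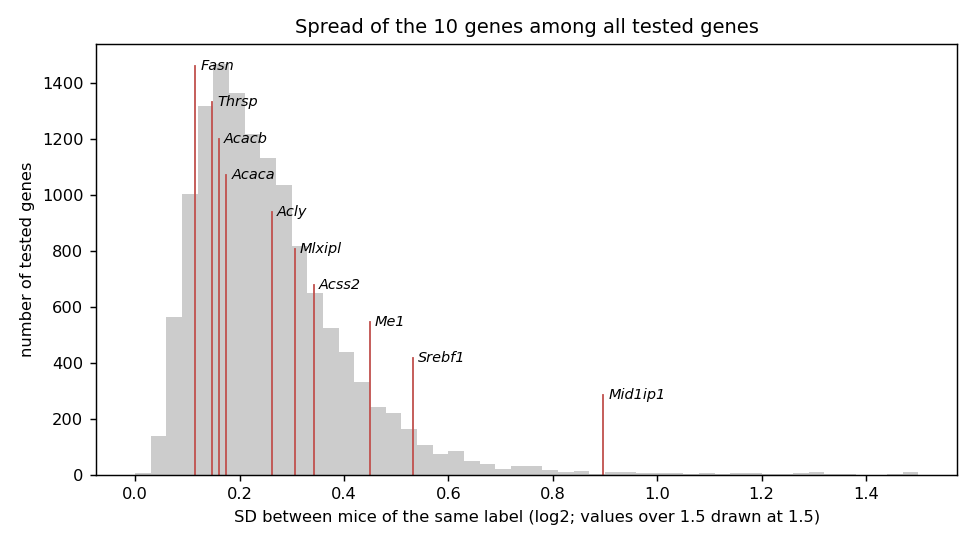
Number of tested genes (vertical axis) by the SD between mice of the same label (horizontal axis, log2), with the 10 genes marked by red lines whose heights carry no meaning. Fasn (0.12) and Thrsp (0.15) have the smallest SDs of the 10, with Acacb (0.16) and Acaca (0.17) close to Thrsp. Mid1ip1 (0.90) lies in the far tail.

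The spread between mice of the same label ran from 0.12 log2 in Fasn to 0.90 in Mid1ip1, against a median of 0.23 over all tested genes. Mid1ip1 lay at the 99.2nd percentile of this SD, Srebf1 (0.53) at the 95.2nd and Me1 (0.45) at the 90.8th. These 3 of the 10 were among the most variable 10% of tested genes. Bright probe sets vary less, so the 8 genes with a mean of at least 8 log2 were also set against the 1525 tested genes of that level. Among those, Fasn stood at the 39.5th percentile, Thrsp at the 60.2nd, Acacb at the 65.6th, Acaca at the 71.5th and Acly at the 88.6th. Mlxipl (92.1st), Acss2 (94.2nd) and Me1 (97.1st) were in the upper 10% there. The SD of Mid1ip1 was 0.16 without Abhd15 KO replicate 1 and WT replicate 2, while that of Srebf1 was 0.33 and that of Me1 0.31. Without these 2 arrays 0 of the 10 genes were in the most variable 10%, and without WT replicate 2 alone 1 was.

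The 2 arrays low in Mid1ip1 were set apart earlier for their low Angptl8, and other genes were read in them. Of all tested genes, 7.65% had these as their 2 lowest arrays and 9.6% as their 2 highest. Of the 10 lipogenic genes Mid1ip1 and Srebf1 had them lowest, and Me1 had them highest. Fasn also had them highest, but in a near tie, with 12.668 in WT replicate 2 and 12.667 in Abhd15 KO replicate 2. Angptl8, a feeding-induced regulator of lipoprotein lipase, read 7.90 in Abhd15 KO replicate 1 and 7.95 in WT replicate 2, against 10.42 to 10.81 in the other 6 arrays. Pdk4, the kinase that shuts off pyruvate dehydrogenase in fasting, read 12.07 and 12.19 in these arrays, against 11.25 to 11.68. Angptl4, an inhibitor of lipoprotein lipase that fasting raises, read 9.24 and 9.76, against 7.90 to 8.58. Of the 12 genes followed by name, which include Kit, Fos and Egr1, 4 had these arrays lowest, 5 had them highest and 3 (Pnpla3, Irs2 and Insig2) had neither. Of the 17 tested genes of the whole list, labelled fed and fasted state, 6 had them lowest, 7 highest and 4 neither. Genes of both sets were picked with their values in these data known, so these numbers support nothing.

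Insig1 and Insig2, which hold SREBPs back in the endoplasmic reticulum, went apart. Insig1 read 10.48 in Abhd15 KO replicate 1 and 10.86 in WT replicate 2, against 9.04 to 9.96 in the other arrays. Insig2 read 5.98 and 6.37 there, against 6.16 to 6.40, so WT replicate 2 lay inside that range. Pnpla3, a lipid droplet protein known as a target of SREBP-1 and ChREBP, read 9.19 and 9.39, against 8.35 to 9.23. Irs2, an adaptor of the insulin receptor, read 6.70 and 7.45, against 6.06 to 7.31.

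The macrophage marker mean was highest in the same 2 arrays, at 5.58 in Abhd15 KO replicate 1 and 5.71 in WT replicate 2. It ran from 4.68 to 5.58 over all arrays labelled Abhd15 KO and from 4.99 to 5.71 over WT, and all 16 markers were above the dim limit in all arrays. The muscle marker mean was 6.11 and 6.83 in the 2 arrays, inside its range in the others. Their part in the low Mid1ip1 and Srebf1 was not tested.

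**Figure D4:**
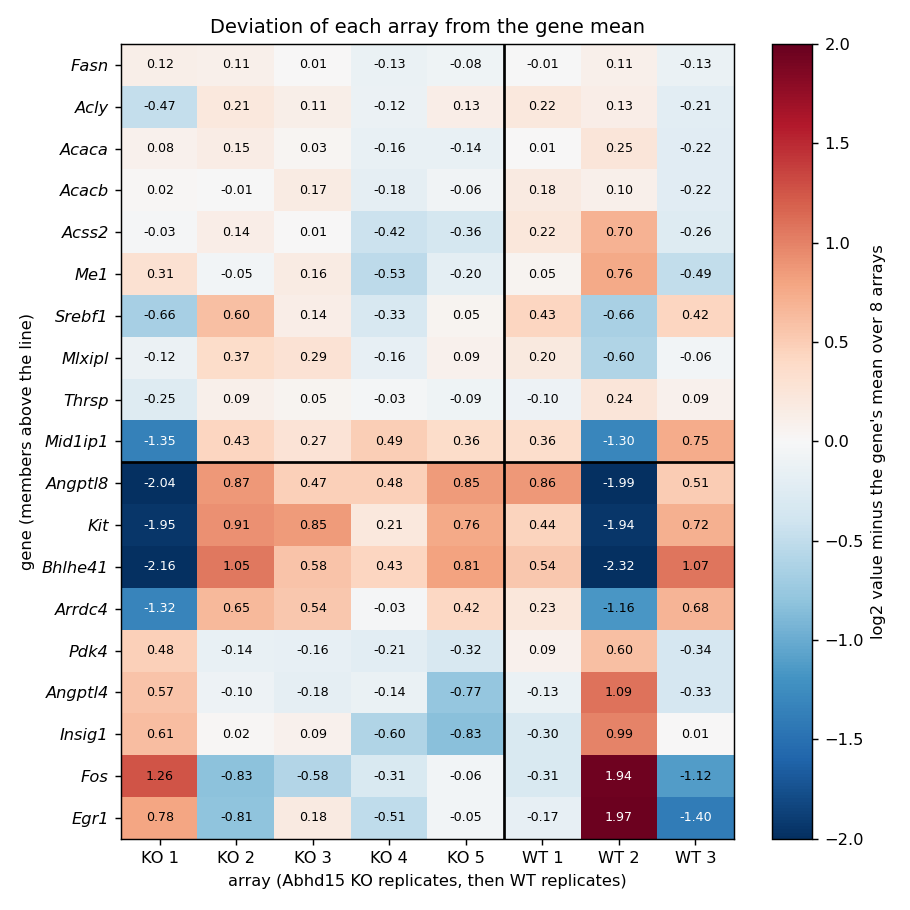
Log2 value of each array minus the gene's mean over 8 arrays (colour and printed value) for the 10 genes above the line and 9 genes below it, with the arrays labelled Abhd15 KO left of the WT arrays. KO 1 and WT 2 are blue in Mid1ip1 (−1.35 and −1.30) and Srebf1 (−0.66 in both), as in Angptl8, Kit, Bhlhe41 and Arrdc4, and red in Pdk4, Angptl4, Insig1, Fos and Egr1. The colour scale ends at 2, so deeper values share its end colour.

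The genes whose profile over the 8 arrays lay closest to that of Mid1ip1 were Shroom1, Sbk1, Arrdc4, Hoxa2 and Dixdc1. Closeness was the root mean square distance between values centred on each gene's mean, 0.22 to 0.27 log2 for these 5. Arrdc4, an arrestin-like gene known as a ChREBP target, read 5.38 in Abhd15 KO replicate 1 and 5.54 in WT replicate 2, against 6.68 to 7.38 in the other arrays. Nearest to Srebf1 were Nufip2, Thumpd2, Dok6, Zxda and Bcar1 (0.15 to 0.20 log2). All 10 of these neighbours had the same 2 arrays lowest, against 7.65% of all tested genes. Nearest to Thrsp were Rpe, an epimerase of the pentose phosphate pathway, Cyp2j6, Ndufc1, Cdk5r1 and Trmt2b (0.06 to 0.07 log2), and 0 of these 5 had them lowest. A gene of small spread lies close to any other of small spread, so distances are not comparable between the 3 genes. No test goes with this ranking, which rests on 8 arrays. The neighbours were chosen for likeness over these same arrays, so how many had the 2 arrays lowest follows largely from the choice.

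In the steps around fatty acid synthesis 0 genes passed the adjusted threshold with limma in any of 7 lists. Counts are over the tested genes of each list. Among those that supply carbon and NADPH, 7 of 13 genes of acetyl-CoA and citrate supply had a positive difference, being higher in Abhd15 KO (median 0.07) and 2 of 8 of NADPH supply (median −0.05). The 2 genes of lowest p in each list are named here, and each still had an adjusted p of 0.9997 by limma. Citrate synthase (Cs) differed by 0.15 (−0.08 to 0.39) and pyruvate carboxylase (Pcx) by −0.16 (−0.41 to 0.09). Pgls, a lactonase of the pentose phosphate pathway, differed by −0.13 (−0.40 to 0.15) and the mitochondrial malic enzyme Me2 by 0.16 (−0.20 to 0.52).

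Downstream of palmitate, 13 of 15 genes of elongation, desaturation and esterification had a positive difference, and the list's median was 0.07 against 0.01 for all tested genes. The elongase Elovl5 differed by 0.28 (−0.15 to 0.70) and the phosphatidate phosphatase Lpin1 by 0.26 (−0.17 to 0.69). Among genes that control malonyl-CoA and the carboxylases, 8 of 12 were higher (median 0.03), and Prkab2, a subunit of the AMP-activated kinase that inhibits the carboxylases, differed by −0.18 (−0.58 to 0.22). Mlycd, which breaks malonyl-CoA down, differed by −0.11 (−0.43 to 0.21).

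Of the SREBP processing genes and transcription partners, 12 of 18 were higher (median 0.05), with the NF-Y subunits Nfyc at 0.25 (−0.06 to 0.57) and Nfyb at 0.27 (−0.20 to 0.75). The sterol genes driven by SREBP-2 had 6 of 14 higher (median −0.07), with Mvd lowest in p and without overlap between the groups. Mvd, an enzyme of the mevalonate pathway, read 3.97, 4.44, 3.94, 3.92 and 3.59 in the arrays labelled Abhd15 KO and 4.83, 4.57 and 4.55 in WT. Lss, the lanosterol synthase, differed by −0.20 (−0.59 to 0.19). Among ChREBP targets outside the pathway 5 of 10 were higher (median 0.06). The glucose transporter gene Slc2a4 read 9.16, 9.34, 9.41, 9.37 and 9.48 in the arrays labelled Abhd15 KO and 8.97, 8.99 and 9.06 in WT, also without overlap. Khk, the ketohexokinase, differed by −0.24 (−0.66 to 0.18). Mvd and Slc2a4 were the 2 genes of the 7 lists with an unadjusted p under 0.05 by limma. That is 1 of 14 sterol genes and 1 of 10 ChREBP targets. The other lists, of 8 to 18 tested genes each, had 0. Of all tested genes, 3.99% had such a p and 2.77% had groups without overlap, so these 2 genes do not set the lists apart.

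These counts moved without Abhd15 KO replicate 1 and WT replicate 2. Then 11 of 13 genes of acetyl-CoA and citrate supply were higher (median 0.11), 4 of 8 of NADPH supply (0.01) and 10 of 15 of elongation, desaturation and esterification (0.09). The carboxylase control genes had 5 of 12 higher (−0.01), the SREBP partners 9 of 18 (0.01), the sterol genes 8 of 14 (0.04) and the ChREBP targets 6 of 10 (0.03).

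**Figure D5:**
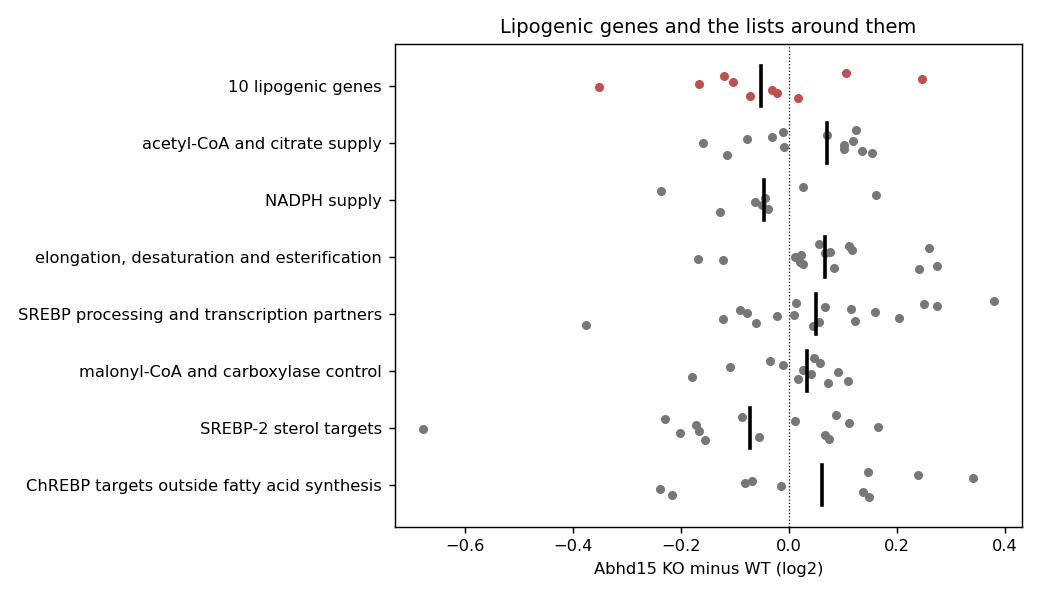
Difference between the labels (Abhd15 KO minus WT, log2, horizontal axis) for the tested genes of the 10 lipogenic genes (red) and 7 surrounding lists (grey), 1 point per gene, with a bar at each median. The medians lie between −0.07 and 0.07, and the farthest points are Mvd (−0.68) on the lower side and Bhlhe41 (0.38) and Slc2a4 (0.34) on the higher side.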

How the data were processed

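The deposited table holds log2 values, 1 per probe set and array. RMA and oligo produced it, per the submitters' processing notes; the design text per the labels names Expression Console instead. RMA quantile-normalizes the arrays, which hides any shift common to most genes. Of 41345 probe sets, GEO's platform annotation gave 23521 a single symbol, and the brightest single-symbol probe set stood for each gene. Genes above 2.88 log2 in at least 3 arrays were tested (13223) with limma 3.58.1 in R 4.3.3 (lmFit, eBayes, 1 group term, Benjamini-Hochberg over all tested genes, threshold 0.05). Arrays have no read depth, and their number limits the precision.

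The 10 genes, the lists and the arrays left out were chosen with earlier results of these data known. The named genes are the 10, the 2 of lowest p per list, Abhd15, Ucp1 and the 5 nearest profiles for 3 of the 10. The nearest profiles leave out predicted genes and microRNAs. A further 12, such as Angptl8, Pdk4, Kit, Fos and Egr1, were followed by name. The motifs were chosen after the values were seen. The fit was tested on simulated data. Alternatives were a replicate block, other dim filters, normalization, centring, trend and robust fitting, array weights, averaged probe sets, and leaving out arrays.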

Additional observations from a re-analysis of the deposited data

Results flagged for a closer look

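Among the 53 genes named, 7 had 1 of the 5 arrays labelled Abhd15 KO far from the other 4, a gap larger than 0.71 of the group's range, and chance gives about 1 in 20 groups. The array was replicate 1 in all 7. It was lowest in Mid1ip1 (4.93, the others from 6.55), Angptl8 (7.90, the others from 10.42), Kit (5.31, the others from 7.47), Bhlhe41 (4.85, the others from 7.44), Nr4a2 (5.74, the others from 6.75) and Shroom1 (3.90, the others from 5.08). It was highest in Pdk4 (12.07, the others up to 11.45). Several of these genes were named because earlier results of these data showed this array apart, or for their likeness to Mid1ip1, so the flags are not independent of each other. The WT group of 3 was not screened.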

How the results depend on the processing

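With limma, 0 tested genes, 0 of the 10 and 0 genes of the 7 surrounding lists passed the adjusted threshold under any of the 17 alternatives, with 422 to 1019 genes at an unadjusted p under 0.05. Acss2 and Mlxipl kept their direction under all 17. Dim filters, trend and robust fitting, and averaged probe sets cannot change the difference of a gene with 1 probe set, as these are. Those settings left it at −0.352 for Acss2 and 0.246 for Mlxipl and do not bear on direction. The other genes of the 10 crossed 0 under some alternatives, as differences inside their own error can. Without Abhd15 KO replicate 1 and WT replicate 2 the differences were 0.074 for Acaca, 0.082 for Acly, 0.068 for Me1, −0.166 for Mid1ip1 and 0.013 for Thrsp. With array weights they were 0.025 for Acaca, 0.003 for Acacb and −0.039 for Mid1ip1. Leaving out 1 array at a time gave −0.138 to 0.095 for Acaca, −0.152 to 0.049 for Acacb, −0.201 to 0.039 for Acly, −0.044 to 0.076 for Fasn, −0.465 to 0.161 for Me1, −0.514 to 0.513 for Mid1ip1, −0.463 to 0.078 for Srebf1, −0.592 to −0.113 for Acss2, 0.022 to 0.423 for Mlxipl and −0.207 to −0.04 for Thrsp. The 3 genes among the most variable 10% were 1 to 3 when single arrays were left out and 0 without the 2 arrays together, a setting that by construction drops the extreme arrays.

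The labels give both groups replicate numbers 1 to 3 and do not say whether these pair the mice. Deviations from the group means over all tested genes correlated at −0.26 for replicate 1, −0.10 for replicate 2 and 0.02 for replicate 3. The highest correlation between an array labelled Abhd15 KO and a WT array was 0.39, for Abhd15 KO replicate 1 and WT replicate 2. Such values cannot tell whether mice shared a litter or a harvest. Replicate numbers 4 and 5 occur only among the arrays labelled Abhd15 KO. A replicate block therefore leaves those arrays no weight in the difference, which rests on replicates 1 to 3 of each label. With that block 0 genes passed, and 422 had an unadjusted p under 0.05 by limma. The differences were then 0.074 for Acaca, 0.041 for Acacb, 0.035 for Me1 and −0.151 for Mid1ip1. These are not the comparison of all 8 arrays with a block added. Signal over background limits none of the 10, and the number of mice limits all of them.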
